A study of Mus musculus with 8 samples.

Results

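Nuclear receptors and their coregulators were examined in mouse distal colon, as a set of 37 genes out of the 52143 genes with a deposited value. The members were chosen by name: 30 receptors for lipids, bile acids, foreign compounds, retinoids, vitamin D, thyroid hormone and glucocorticoids together with related orphan receptors, and 7 coregulators that these receptors bind. Estrogen-type and clock receptors were left out. Each of the 37 members was found once. The study asked what expression of human SIGLEC12 does to mouse intestinal epithelium. This gene encodes Siglec-XII, a member of the Siglec receptor family that, per the paper, cannot bind sialic acids because of a mutation. RNA was sequenced from 8 colon samples taken before any further challenge, 4 per group. Control samples came from Villin1-Cre-ERT mice, which carry the tamoxifen-dependent recombinase alone. Siglec-XII samples came from SIGLEC12-Villin1-Cre-ERT mice, which in addition carry 1 floxed SIGLEC12 allele at the ROSA26 locus, transcribed from the CAG promoter once a stop cassette marked with EGFP has been removed. Both groups were female, were 8 weeks of age at the first injection, received tamoxifen on 5 days at 10 mg/mL, and were harvested 7 days after the last dose, on day 12. The Villin1 promoter limits recombination to epithelial cells of the small and large intestine, whereas the RNA came from colon tissue with other cell types in it. No value of the transgene was among those used here, so the group labels were not checked against it. The labels list 4 samples per group where the design text speaks of 3 mice, and they do not tie samples to animals, so the p-values measure the spread between these samples, which may be in part technical. The paper's methods speak of 3 technical replicate libraries from each sample, and the labels do not say whether the 4 samples of a group are such libraries.

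Nuclear receptors are transcription factors that bind DNA through a zinc finger domain and, in most cases, a small lipophilic ligand through a second domain. Many of them pair with a retinoid X receptor (RXR) and exchange corepressors, such as NCoR, for coactivators, such as the p160 proteins, when ligand binds. In the intestinal epithelium they are known for sensing bile acids, fatty acids, retinoids, vitamin D and foreign compounds, and for setting the transport and detoxification of these molecules.

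Levels are given in TPM, a share of all transcripts that corrects for transcript length and so allows genes to be set side by side, and differences as log2(TPM + 1) in Siglec-XII minus control samples. The depth reached in each sample is not on record in TPM values and is unknown. Intestinal epithelium was present in each sample: all 8 epithelial markers were expressed, and the colonocyte gene Car1 was at 1931 to 2973 TPM. Of the 8 markers, Lgals4 had the highest mean in both groups (4586 to 5338 TPM in control and 5143 to 5672 TPM in Siglec-XII samples). In control sample 3, Krt8 was higher than Lgals4, at 5352 TPM. Of 6 small intestinal enterocyte genes, Apoa4 was listed at 0 in all 8 samples, and Lct, Sis, Alpi and Apoc3 were each under 1 TPM, while Fabp2 was at 12.7 to 19.9 TPM. Control samples 1 and 4 were high in a squamous epithelial gene as well: Krt14 was 5674 and 3252 TPM there, beside 4586 and 4939 TPM for Lgals4.

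Some samples stood apart from the rest. On the first principal component of the 13164 tested genes, which held 40.3% of the variance, Siglec-XII samples 3 and 4 lay at 36.2 and 50.2 and the other samples between -29.0 and -4.80. Control sample 1 was at 47.7 on the second component, where the other samples lay between -22.8 and 16.4. The median gene deviated from its mean over the 8 samples by -0.16 and -0.30 log2 units in Siglec-XII samples 3 and 4, by -0.045 in control sample 1, and by 0.060 to 0.15 in the other samples. The median log2 difference of all genes tested was -0.15, which became 0.017 after quantile normalization and 0.060 after each sample was centred on its median. Differences of members are given beside this value.

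The levels of the members spanned a wide range (plot of levels by member). Vdr, the vitamin D receptor, was the highest member in each of the 8 samples, at 127 ± 16.8 TPM in control samples (SD, n = 4). Ppard, which encodes the fatty acid receptor PPARδ, followed at 109 ± 17.4 TPM (SD, n = 4), and the control ranges of these genes overlapped. Next in order were the orphan receptor gene Nr2f6 (78.8 ± 4.88 TPM), the oxysterol receptor gene Nr1h2 (59.1 ± 7.52 TPM) and the corepressor gene Ncor1 (47.7 ± 11.4 TPM; SD, n = 4 each). Control means from 20 to 40 TPM were found for Nr1i2, Rxrb, Thra, Pparg, Rxra and Nr1h4, in this order, from 38.4 to 28.2 TPM. Lower means, from 19.5 down to 10.4 TPM, belonged to Nr1h3, Rarg, Nr3c1, Nrip1, Nr5a2, Rara, Ncoa3, Ppargc1a, Ncoa1, Nr2f2 and Ncoa2. Under 10 TPM were Thrb, Nr2c2, Ppargc1b, Nr2c1, Ppara, Nr1i3 and Nr6a1, from 8.97 to 1.49 TPM. Neighbours in this order mostly did not differ beyond their spread, since the control ranges were apart in 5 of 28 neighbouring pairs. The steps that were apart lay below Nr2f6, Nr1h4, Nr2c1, Ppara and Nr1i3.

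The remaining 8 members were below 1 TPM on average in control samples and did not pass the filter of at least 1 TPM in at least 4 samples, so they were not tested. Rora ranged over 0.202 to 1.54 TPM, Nr4a2 over 0.234 to 0.746 TPM, Rarb over 0.171 to 0.375 TPM, Nr2f1 over 0.104 to 0.380 TPM, Nr4a3 over 0.0553 to 0.252 TPM, Rorb over 0.0555 to 0.198 TPM and Rxrg over 0.0231 to 0.215 TPM. Nr0b2, which encodes the small heterodimer partner SHP, was listed at 0 in all 8 samples.

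**Figure D1:**
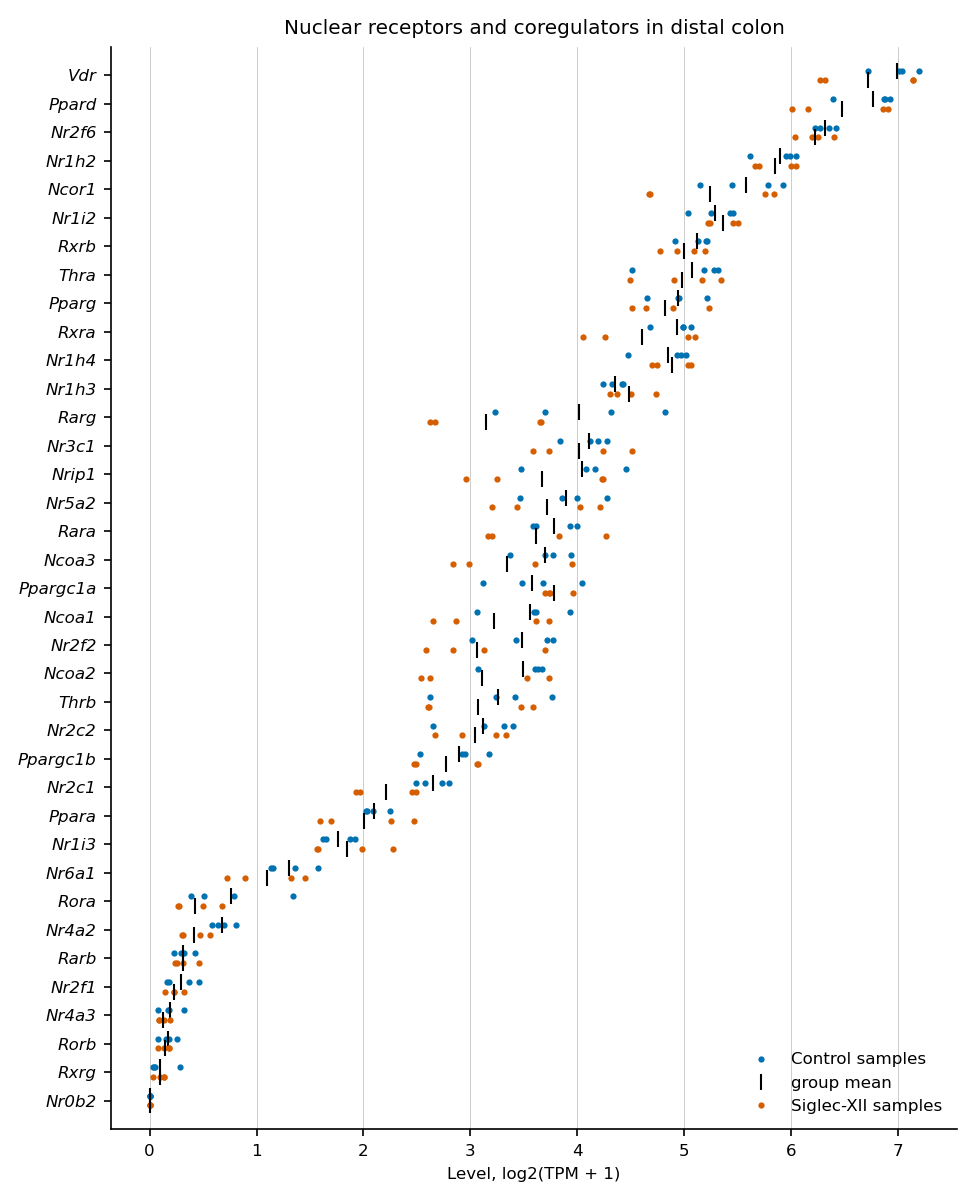
Level of each of the 37 members as log2(TPM + 1) (horizontal axis) in the 4 control samples and the 4 Siglec-XII samples (points), with the mean of each group as a vertical tick. Members are ordered by control mean, with Vdr (127 TPM) at the top and Nr0b2 (0 TPM) at the bottom.

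Of the 29 members tested, 0 had an adjusted p of 0.05 or less by limma, with a smallest adjusted p of 0.515, while 5 of all 13164 genes tested (0.038%) did. Without adjustment, 1 member (Nr2c1) was lower in Siglec-XII samples at p of 0.05 or less and 0 were higher, beside 7.67% of all genes lower and 1.19% higher. With a fold change of at least 2 in addition, 0 members were left, beside 0.919% of all genes. Every Siglec-XII sample was below every control sample in 1 tested member (Nr2c1) and above every control sample in 0, beside 4.06% and 1.05% of all genes. The log2 difference was above 0 in 5 of 29 members, beside 21.9% of all genes, and became positive in 17 members after quantile normalization and in 18 after median centring. The median log2 difference was -0.17 over the members and -0.15 over all genes. For 24 of 29 members, the 95% confidence interval lay within 1 unit of log2(TPM + 1) in either direction. The fold change above was counted on the same scale. For members of a few TPM, 1 unit is more than a 2-fold change in TPM, so their intervals can still hold such a change.

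**Figure D2:**
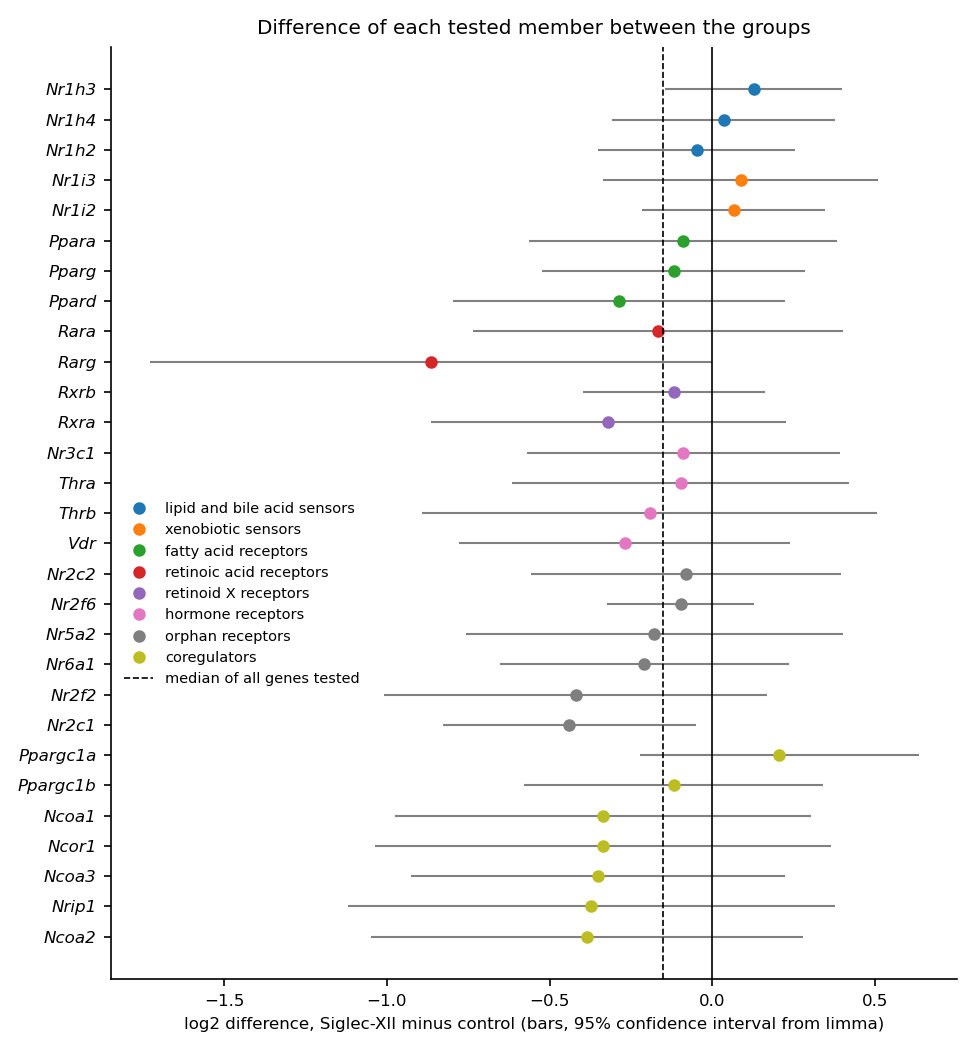
Log2 difference of each tested member, Siglec-XII minus control samples (points, coloured by role), with its 95% confidence interval from limma (bars); the solid line is 0 and the dashed line the median of all genes tested, -0.15. The interval of Nr2c1 (-0.83 to -0.049) is the 1 interval that lies wholly below 0.

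With all 8 samples and no scaling, 4 of the 5 receptors for oxysterols, bile acids and foreign compounds had a log2 difference above 0, beside 21.9% of all genes. This set joins the lipid and bile acid sensors with the xenobiotic sensors, a grouping that was not planned in advance. Of the 24 other members, 1 was above 0, while Nr2c2, Nr3c1, Ppara, Thra and Nr2f6 were close to 0, from -0.081 to -0.098. A difference between these sets was not tested. For the 5 receptors, the log2 differences were -0.048 for Nr1h2 (LXRβ), 0.13 for Nr1h3 (LXRα), 0.035 for Nr1h4 (the bile acid receptor FXR), 0.066 for Nr1i2 (the xenobiotic receptor PXR) and 0.087 for Nr1i3 (its relative CAR). After median centring these were 0.16, 0.34, 0.25, 0.28 and 0.30, and Nr1h4 and Nr1i2 had an unadjusted p of 0.0397 and 0.0163 from limma. In that setting, 10.8% of all genes had an unadjusted p of 0.05 or less and 61.5% were above 0. No adjusted p of these members was 0.05 or less in either setting. Of the 24 other members, 13 were also above 0 after median centring. Without control sample 1, Nr1h2, Nr1h4 and Nr1i2 were at -0.14, -0.089 and -0.020. Without Siglec-XII samples 3 and 4, Nr1h2 was at 0.12 and Nr1h3 at -0.013, each of opposite sign to the value with all samples. Of all 29 tested members, 25 were then above 0, beside 50.9% of all genes, so the 5 receptors did not stand out in that setting.

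Nr1h3 (ENSMUSG00000002108, chr2:91184061-91202834 of GRCm38), which drives cholesterol efflux and fatty acid synthesis genes, was 20.4, 20.5, 17.9 and 19.0 TPM in control samples 1 to 4 and 18.8, 19.7, 21.7 and 25.6 TPM in Siglec-XII samples 1 to 4. Siglec-XII samples 3 and 4 were the highest of all 8, and the groups overlapped (log2 difference 0.13, SE 0.1202, unadjusted p = 0.316, adjusted p = 0.619 from limma). Its partner in function Nr1h2 was 48.1, 64.9, 60.9 and 62.4 TPM in control samples 1 to 4 and 65.2, 62.8, 51.0 and 49.6 TPM in Siglec-XII samples 1 to 4. Control sample 1 and Siglec-XII samples 3 and 4 were its lowest samples, so that the ratio of Nr1h2 to Nr1h3 was 2.35 in control sample 1, 2.35 and 1.94 in Siglec-XII samples 3 and 4, and 3.16 to 3.47 in the other samples. Of 12 genes regulated by LXR, all passed the filter, 6 had a difference above 0 (beside 21.9% of all genes) and 0 had an adjusted p of 0.05 or less by limma. At an unadjusted p of 0.05 or less, 1 was lower (beside 7.67%). That gene, Arl4c, was 4.34, 2.71, 1.09 and 4.12 TPM in control samples 1 to 4 and 1.21, 2.10, 0.674 and 0.509 TPM in Siglec-XII samples 1 to 4 (log2 difference -0.90, SE 0.335, unadjusted p = 0.0245, adjusted p = 0.515 from limma), and the groups overlapped. Smpdl3a, a phosphodiesterase gene and the most abundant of the list, was 286 ± 50.4 TPM in control and 331 ± 23.6 TPM in Siglec-XII samples (SD, n = 4 each).

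Nr1h4 was 21.3, 30.3, 31.4 and 29.6 TPM in control samples 1 to 4 and 32.4, 31.8, 24.9 and 25.8 TPM in Siglec-XII samples 1 to 4. Control sample 1 was the lowest of the 8, and the ranges of the groups overlapped. FXR is known to induce Nr0b2 and the hormone gene Fgf15 in the ileum, and both were listed at 0 in all 8 colon samples. Among the other FXR genes, Fabp6, which encodes a bile acid-binding protein and was the highest of the list, was at 24.5 to 33.1 TPM, and Slc51b, which encodes the β subunit of the basolateral bile acid transporter, was at 10.5 to 21.4 TPM. Slc51a, which encodes the α subunit, was at 0.0236 to 0.153 TPM, and Abcb11 at 0.0106 to 0.274 TPM. Of the 5 genes, 2 passed the filter and 0 had an unadjusted or adjusted p of 0.05 or less by limma.

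Nr1i2 was 31.8, 42.0, 42.9 and 37.1 TPM in control samples 1 to 4 and 44.4, 43.0, 36.9 and 36.4 TPM in Siglec-XII samples 1 to 4. The groups overlapped, with control sample 1 the lowest. Nr1i3 (ENSMUSG00000005677, chr1:171213970-171220701) was far lower, at 2.66, 2.07, 2.78 and 2.13 TPM in control samples 1 to 4 and 1.96, 2.96, 1.98 and 3.83 TPM in Siglec-XII samples 1 to 4 (log2 difference 0.087, SE 0.187, unadjusted p = 0.654, adjusted p = 0.825 from limma), and Siglec-XII sample 4 was its highest sample. Of its exon bases, 74.9% overlap Tomm40l on the opposite strand, so its level is uncertain: the library kit was stranded, but whether the counting used strand is not given in the sources used here. Of 12 genes regulated by PXR or CAR, 9 passed the filter, 5 had a difference above 0 (beside 21.9% of all genes) and 0 had an adjusted p of 0.05 or less by limma. At an unadjusted p of 0.05 or less, 1 gene was lower (beside 7.67%). It was the glucuronosyltransferase gene Ugt1a1, at 22.8, 23.4, 17.3 and 24.2 TPM in control and 17.96, 18.7, 17.5 and 16.3 TPM in Siglec-XII samples (log2 difference -0.29, SE 0.126, unadjusted p = 0.0480, adjusted p = 0.515 from limma), with overlapping groups. The cytochrome P450 gene Cyp2c55 was the most abundant of the list, at 247 to 710 TPM, while the hepatic and small intestinal target Cyp3a11 was listed at 0 in all 8 samples.

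All 3 fatty acid receptors of the PPAR family were expressed, in the order Ppard, Pparg and Ppara. Ppard was 83.2, 116, 121 and 116 TPM in control samples 1 to 4 and 119, 115, 70.2 and 63.2 TPM in Siglec-XII samples 1 to 4, with Siglec-XII samples 3 and 4 below the other 6. Pparg was 29.9 ± 4.86 TPM in control and 27.8 ± 6.57 TPM in Siglec-XII samples, and Ppara 3.29 ± 0.309 TPM and 3.16 ± 1.22 TPM (SD, n = 4 each). The order held in each sample, since Ppard exceeded Pparg by 3.22- to 4.04-fold in control and by 2.90- to 4.01-fold in Siglec-XII samples. The log2 differences of Ppard, Pparg and Ppara were -0.29, -0.12 and -0.089, with adjusted p of 0.568, 0.749 and 0.840 from limma; after median centring they were -0.075, 0.094 and 0.12, so the sign of Pparg and Ppara changed. Of 17 genes regulated by PPARs, which serve fatty acid oxidation and lipid storage, 11 passed the filter and 0 had an adjusted p of 0.05 or less by limma. At an unadjusted p of 0.05 or less, 1 was lower (beside 7.67% of all genes). The lipid droplet gene Plin2, the most abundant of the list, was 183 ± 43.3 TPM in control and 186 ± 22.4 TPM in Siglec-XII samples (SD, n = 4 each).

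Retinoic acid receptors act with RXR on retinoic acid. Rarg (ENSMUSG00000001288, chr15:102234938-102257517), the form known from skin and other stratified epithelia, had the lowest log2 difference of the tested members. Rarg was 27.2, 11.97, 8.40 and 18.9 TPM in control samples 1 to 4 and 11.6, 11.7, 5.15 and 5.34 TPM in Siglec-XII samples 1 to 4. Control samples 1 and 4 were the highest and Siglec-XII samples 3 and 4 the lowest, and control samples 2 and 3 overlapped with Siglec-XII samples 1 and 2. Its log2 difference was -0.86 (SE 0.382, unadjusted p = 0.050021, adjusted p = 0.515 from limma), and -0.66 after quantile normalization, -0.65 after median centring and -0.29 with array weights. It was -0.36 without Siglec-XII samples 3 and 4 and -0.091 without control sample 1 as well. Rara was spread differently, at 11.2, 14.2, 15.0 and 11.04 TPM in control samples 1 to 4 and 18.3, 13.2, 8.19 and 7.97 TPM in Siglec-XII samples 1 to 4, with Siglec-XII sample 1 the highest and an adjusted p of 0.750 from limma. Rara exceeded Rarg in control samples 2 and 3 and all 4 Siglec-XII samples, whereas in control samples 1 and 4 the ratio of Rara to Rarg was 0.413 and 0.586.

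Markers of stratified squamous epithelium, a tissue of the anal canal rather than the colon, were high in the same control samples. These 10 genes (Krt5, Krt14, Krt13, Krt4, Krt6a, Krt10, Krt1, Trp63, Dsg3 and Sprr1a) were chosen after the values were seen. Their summed level was 25440, 2116, 1814 and 13045 TPM in control samples 1 to 4 and 2054, 6278, 904 and 1101 TPM in Siglec-XII samples 1 to 4. Control samples 1 and 4 and Siglec-XII sample 2 were the highest, and Siglec-XII samples 3 and 4 the lowest, as for Rarg apart from Siglec-XII sample 2, where Rarg was close to Siglec-XII sample 1. Krt14, the most abundant of the list on average in control samples, ranged over 120 to 5674 TPM, and none of the 10 was at 0 in any sample. All 10 passed the filter with differences below 0, where 21.9% of all genes were above 0. By limma, 0 had an adjusted p of 0.05 or less, and 1, Dsg3, was lower at an unadjusted p of 0.05 or less (log2 difference -1.69, SE 0.706, unadjusted p = 0.0403, adjusted p = 0.515 from limma), beside 7.67% of all genes. The basal cell factor gene Trp63 was 12.8, 5.23, 2.79 and 12.3 TPM in control samples 1 to 4 and 3.92, 6.25, 1.42 and 2.05 TPM in Siglec-XII samples 1 to 4. The part of squamous tissue in the Rarg values was not tested. In these bulk samples, fewer cells of a type and less RNA per cell cannot be told apart.

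Genes regulated by retinoic acid receptors were examined next. Of 9 such genes, 5 passed the filter, 0 had an adjusted p of 0.05 or less by limma, 2 were lower at an unadjusted p of 0.05 or less (beside 7.67% of all genes), and 0 had a difference above 0 (beside 21.9%). Crabp2, which encodes a retinoic acid-binding protein and had the highest control mean of the list, was 145, 18.2, 11.8 and 75.5 TPM in control samples 1 to 4 and 17.3, 31.6, 7.30 and 8.28 TPM in Siglec-XII samples 1 to 4. Control samples 1 and 4 were its highest samples, followed by Siglec-XII sample 2 (log2 difference -1.48, SE 0.775, unadjusted p = 0.0892, adjusted p = 0.515 from limma). Dhrs3, which encodes a retinaldehyde reductase, was 31.7, 30.8, 21.9 and 25.8 TPM in control samples 1 to 4 and 23.2, 24.8, 15.9 and 14.3 TPM in Siglec-XII samples 1 to 4 (log2 difference -0.50, SE 0.199, unadjusted p = 0.0341, adjusted p = 0.515 from limma). Tgm2, which encodes a transglutaminase, was 5.12, 10.1, 5.97 and 5.00 TPM in control samples 1 to 4 and 3.54, 3.53, 3.33 and 5.64 TPM in Siglec-XII samples 1 to 4 (log2 difference -0.57, SE 0.231, unadjusted p = 0.0368, adjusted p = 0.515 from limma). The groups overlapped in each of these genes. In Siglec-XII samples the mean of Dhrs3 was above that of Crabp2, at 19.5 and 16.1 TPM. The retinoic acid hydroxylase genes Cyp26a1 and Cyp26b1 were at most 0.0323 and 0.371 TPM, and Cyp26c1 was listed at 0 in all 8 samples. Of 9 retinoid supply enzymes and carriers, 6 passed the filter and 0 had an unadjusted or adjusted p of 0.05 or less by limma. The difference was above 0 in 1 of them, beside 21.9% of all genes. The retinol-binding protein gene Rbp2 was the highest, at 99.4 to 166 TPM.

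**Figure D3:**
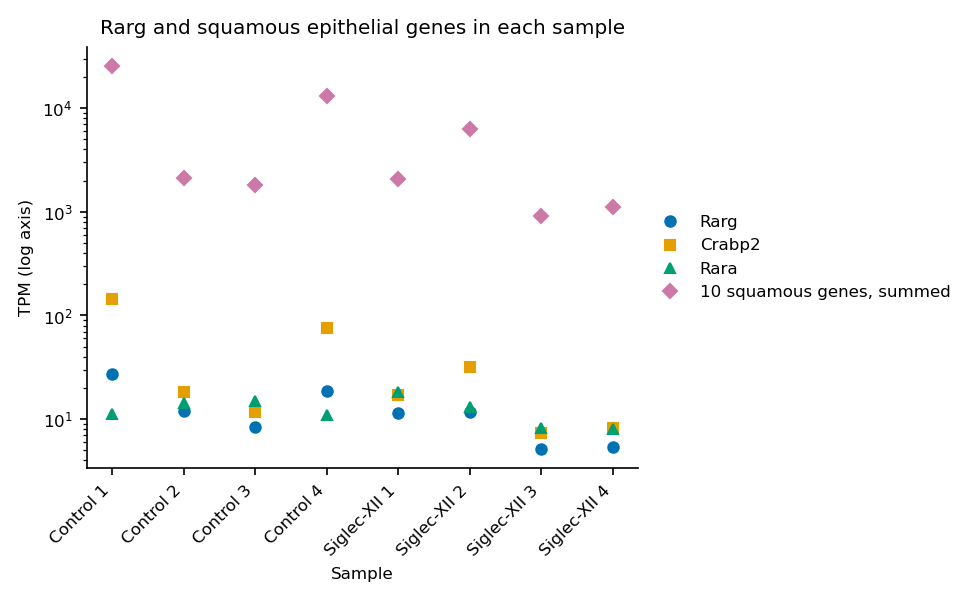
Level in TPM (vertical log axis) of Rarg, Rara, the retinoic acid-binding protein gene Crabp2 and the sum of 10 squamous epithelial genes in each of the 8 samples. Control samples 1 and 4 are highest for Rarg (27.2 and 18.9 TPM), for Crabp2 and for the squamous sum, and not for Rara.

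Rarb was low in both groups, at 0.246, 0.347, 0.171 and 0.224 TPM in control samples 1 to 4 and 0.244, 0.375, 0.175 and 0.192 TPM in Siglec-XII samples 1 to 4, and 34.1% of its exon bases overlap Top2b on the opposite strand. Rarb is itself a known target of retinoic acid receptors through a repeated element in its promoter, which is shown for that reason. Promoters from RefSeq (GRCm38.p6) matched 32 of the 37 members with 49 promoters; Ncoa2, Ncoa3, Nr3c1, Ppargc1b and Thra had no entry. The 250 bases before each start were searched on both strands for direct repeats of the receptor hexamer AGGTCA, with A or G allowed at base 1 and G or T at base 3, in any pair, spaced by 0 to 5 bases. A repeat was found in 1 of 49 member promoters (2.04%), that of Rarb, and in 0.706% of all 32851 promoters. Single hexamers, those within repeats included, were found in 20 member promoters (40.8%) and in 38.6% of all promoters. The Rarb repeat has a spacing of 5 bases, 53 to 37 bases before the start, at chr14:16575507-16575535 with its flanks on the minus strand, with the hexamers in capitals:
Rarb: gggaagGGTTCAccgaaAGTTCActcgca
The match is a description of these letters and was not examined for binding.

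Of the retinoid X receptors, Rxrb and Rxra were at similar levels and Rxrg was near 0. Rxrb was 29.1, 35.9, 34.1 and 36.1 TPM in control samples 1 to 4 and 35.6, 33.2, 29.5 and 26.3 TPM in Siglec-XII samples 1 to 4. Rxra was 24.7, 30.7, 30.8 and 32.4 TPM in control samples 1 to 4 and 33.2, 31.7, 18.1 and 15.6 TPM in Siglec-XII samples 1 to 4. Both genes overlapped between the groups, but Rxra was lower in Siglec-XII samples 3 and 4 than in any other sample, and the ratio of Rxrb to Rxra was 1.63 and 1.68 there and 1.05 to 1.18 in the other 6. The log2 differences were -0.32 for Rxra and -0.12 for Rxrb (adjusted p = 0.559 and 0.649 from limma), and after median centring -0.11 and 0.10.

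Vdr, the receptor through which vitamin D sets intestinal calcium uptake, was 104, 130, 145 and 128 TPM in control samples 1 to 4 and 140, 140, 76.4 and 78.9 TPM in Siglec-XII samples 1 to 4. Siglec-XII samples 3 and 4 were below the other 6 samples, and Siglec-XII samples 1 and 2 lay within the control range (log2 difference -0.27, SE 0.225, unadjusted p = 0.263, adjusted p = 0.587 from limma). After median centring the difference was -0.056, and without Siglec-XII samples 3 and 4 it was 0.15. Of 7 genes regulated by VDR, 6 passed the filter and 0 had an unadjusted or adjusted p of 0.05 or less by limma. The difference was above 0 in 3 of them, beside 21.9% of all genes. S100g, which encodes the calcium-binding protein calbindin-D9k and was the most abundant of the list, was 138, 438, 596 and 812 TPM in control samples 1 to 4 and 544, 914, 312 and 433 TPM in Siglec-XII samples 1 to 4. It was lowest in control sample 1 and highest in Siglec-XII sample 2, with overlapping groups. The vitamin D hydroxylase gene Cyp24a1 was at most 0.0121 TPM.

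Of the thyroid hormone receptor genes, Thra was 21.9, 38.9, 37.8 and 35.5 TPM in control samples 1 to 4 and 39.7, 34.8, 29.0 and 21.5 TPM in Siglec-XII samples 1 to 4. Thrb was 5.17, 8.44, 9.67 and 12.6 TPM in control samples 1 to 4 and 11, 10.1, 5.07 and 5.11 TPM in Siglec-XII samples 1 to 4. Thra was lowest in Siglec-XII sample 4 and control sample 1, Thrb in Siglec-XII samples 3 and 4 and control sample 1, and Thra exceeded Thrb by 2.82- to 5.72-fold. Thra shares 5.70% of its exon bases with Nr1d1 on the opposite strand. The log2 differences were -0.10 and -0.19 (adjusted p = 0.841 and 0.765 from limma), and 0.12 and 0.020 after median centring. Of 6 genes regulated by thyroid hormone, 5 passed the filter and 0 had an unadjusted or adjusted p of 0.05 or less by limma; the deiodinase gene Dio1 was the highest, at 68.0 to 123 TPM. The glucocorticoid receptor gene Nr3c1 was 13.3, 17.3, 18.4 and 16.4 TPM in control samples 1 to 4 and 21.7, 17.9, 12.3 and 11.01 TPM in Siglec-XII samples 1 to 4. Siglec-XII sample 1 was its highest and Siglec-XII sample 4 its lowest sample (log2 difference -0.089, or 0.12 after median centring; adjusted p = 0.845 from limma). Of 10 genes regulated by glucocorticoids, 9 passed the filter and 0 had an unadjusted or adjusted p of 0.05 or less by limma; the metallothionein gene Mt2 was the highest, at 399 to 1228 TPM.

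Among the orphan receptors, Nr2c1 (ENSMUSG00000005897, chr10:94148023-94197211), which encodes the testicular receptor TR2, was the tested member with the smallest p. Nr2c1 was 4.63, 5.97, 5.64 and 4.96 TPM in control samples 1 to 4 and 4.48, 4.61, 2.91 and 2.82 TPM in Siglec-XII samples 1 to 4. Every Siglec-XII sample was below every control sample, although the lowest control (4.63 TPM) and the highest Siglec-XII sample (4.61 TPM) nearly met, and Siglec-XII samples 3 and 4 were well below the others. Its log2 difference was -0.44 (SE 0.172, unadjusted p = 0.0313, adjusted p = 0.515 from limma), lower in 4 of 4 Siglec-XII samples. It was -0.23 after median centring, -0.20 after quantile normalization and -0.18 without Siglec-XII samples 3 and 4, with unadjusted p of 0.0565, 0.102 and 0.241 from limma. With array weights the unadjusted p was 0.0662 from limma. Nr2c1 did not pass a filter at 5 TPM, and the 1 member with an unadjusted p of 0.05 or less from limma was then Rarg. With the sample number as a block, Rarg was again the 1 such member, so Nr2c1 was not called. Nr2c2 (TR4), the relative of Nr2c1, was 5.26, 7.75, 9.55 and 8.95 TPM in control samples 1 to 4 and 8.45, 9.05, 5.38 and 6.58 TPM in Siglec-XII samples 1 to 4, with overlapping groups (adjusted p = 0.857 from limma), and 30.7% of its exon bases overlap Mrps25 on the opposite strand.

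Nr2f2 (ENSMUSG00000030551, chr7:70351944-70366735), which encodes COUP-TFII, a receptor known from stromal and vascular cells, had the next lowest difference. Nr2f2 was 7.10, 12.2, 9.76 and 12.7 TPM in control samples 1 to 4 and 12.02, 7.73, 6.16 and 5.02 TPM in Siglec-XII samples 1 to 4. Siglec-XII samples 3 and 4 were the lowest, control sample 1 and Siglec-XII sample 2 were also low, and the groups overlapped (log2 difference -0.42, SE 0.260, unadjusted p = 0.142, adjusted p = 0.522 from limma). The difference was -0.19 after quantile normalization and -0.21 after median centring. It was -0.070 without Siglec-XII samples 3 and 4 and -0.22 without control sample 1 as well. With array weights it was -0.44 at an unadjusted p of 0.0270 from limma, where 14.1% of all genes had an unadjusted p of 0.05 or less. Nr2f6, an abundant member of the same family, was 81.0, 84.6, 76.0 and 73.8 TPM in control and 83.3, 75.4, 72.1 and 64.5 TPM in Siglec-XII samples, a narrow and overlapping range, and 54.4% of its exon bases overlap Ocel1 on the opposite strand. Its log2 difference of -0.10 (95% confidence interval -0.32 to 0.13) became 0.12 after median centring.

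Markers of muscle and endothelium were followed as well. Of 8 smooth muscle genes, 4 were lower at an unadjusted p of 0.05 or less (beside 7.67% of all genes) and 0 had an adjusted p of 0.05 or less by limma. A difference above 0 was found for 0 of them (beside 21.9%). Their summed level was 878, 645, 1028 and 833 TPM in control samples 1 to 4 and 658, 580, 665 and 311 TPM in Siglec-XII samples 1 to 4, Tagln was the most abundant, and none was at 0. Siglec-XII sample 4 was the lowest of all 8. Of 6 endothelial genes, 2 passed the filter and 1, Pecam1, was lower at an unadjusted p of 0.05 or less (beside 7.67% of all genes) and 0 at an adjusted one by limma. Pecam1 was 1.78 to 2.48 TPM in control and 0.985 to 1.18 TPM in Siglec-XII samples. Lyve1 was the most abundant endothelial gene, and the summed level was 4.70 to 8.65 TPM. Of 5 skeletal muscle genes, 4 passed the filter and all 4 were higher at an unadjusted p of 0.05 or less (beside 1.19% of all genes), with 0 at an adjusted p of 0.05 or less by limma. Their summed level was 20.5, 53.8, 51.4 and 21.8 TPM in control samples 1 to 4 and 79.0, 79.5, 129 and 44.1 TPM in Siglec-XII samples 1 to 4, Acta1 was the most abundant, and Myh4 was at 0 in control samples 3 and 4 and Siglec-XII sample 4. Whether these tissues had a part in the values of Nr2f2 or of other members was not tested.

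The cell type lists other than these and the squamous list held 0 genes with an unadjusted or adjusted p of 0.05 or less by limma. Summed levels ranged over 10417 to 13868 TPM for 8 epithelial genes, 5532 to 6962 TPM for 6 colonocyte genes (Car1 highest) and 5596 to 7634 TPM for 6 goblet cell genes (Tff3 highest). They were far lower for 6 fibroblast genes (15.5 to 73.1 TPM, Dcn highest), 6 adipocyte genes (6.70 to 52.9 TPM, Fabp4 highest on the control mean), 7 genes of enteric neurons and glia (4.32 to 10.3 TPM, Uchl1 highest) and 6 small intestinal genes (13.6 to 21.0 TPM, Fabp2 highest). On the Siglec-XII mean, the highest adipocyte gene was Cfd, at 12.2 TPM beside 8.04 TPM for Fabp4. Immune cell markers were also low, with 2.78 to 5.83 TPM for 6 macrophage genes (Cd68 highest), 1.198 to 3.23 TPM for 6 T cell genes (Cd3g highest) and 0.944 to 17.7 TPM for 6 B and plasma cell genes (Jchain highest). The macrophage sum was lower in every Siglec-XII sample (2.78 to 3.12 TPM) than in every control sample (3.72 to 5.83 TPM). The same held for 4.06% of all single genes tested. Of the 6 macrophage genes, 1 passed the filter, Cd68, which was at 1.02 to 3.50 TPM and overlapped between the groups. On another measure, the mean log2(TPM + 1) over the list, 2 more lists did not overlap. These were enteric neurons and glia (0.58 to 0.77 in control and 0.49 to 0.56 in Siglec-XII samples) and smooth muscle (5.64 to 6.22 and 4.53 to 5.63, nearly meeting). Their summed levels did overlap. Control sample 2 was at 5.11 TPM for neurons and glia and 645 TPM for smooth muscle, below Siglec-XII sample 3 at 5.32 and 665 TPM. The part of these cells in the members' values was not tested.

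Nr5a2 (LRH-1), which is known to maintain crypt renewal and local steroid synthesis, was 10.0, 14.9, 18.4 and 13.5 TPM in control samples 1 to 4 and 17.6, 15.3, 9.81 and 8.19 TPM in Siglec-XII samples 1 to 4. Control sample 1 and Siglec-XII samples 3 and 4 were its lowest samples (log2 difference -0.18, or 0.034 after median centring; adjusted p = 0.738 from limma). Of 4 genes regulated by LRH-1, 2 passed the filter and both, the cyclin genes Ccnd1 and Ccne1, were lower at an unadjusted p of 0.05 or less (beside 7.67% of all genes), with 0 at an adjusted p of 0.05 or less by limma. Ccnd1, the more abundant, was 28.8, 26.7, 26.0 and 20.4 TPM in control samples 1 to 4 and 23.9, 19.7, 14.1 and 8.56 TPM in Siglec-XII samples 1 to 4 (log2 difference -0.67, SE 0.274, unadjusted p = 0.0369, adjusted p = 0.515 from limma), and control sample 4 was below Siglec-XII sample 1. Ccne1 was 4.58, 3.28, 4.11 and 3.52 TPM in control samples 1 to 4 and 2.53, 3.27, 3.13 and 2.50 TPM in Siglec-XII samples 1 to 4 (log2 difference -0.34, SE 0.142, unadjusted p = 0.0427, adjusted p = 0.515 from limma). Its groups did not overlap, by a margin of the lowest control at 3.28 TPM over the highest Siglec-XII sample at 3.27 TPM, as in 4.06% of all genes tested. The steroid synthesis genes Cyp11a1 and Cyp11b1 were at most 0.647 and 0.0118 TPM.

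Nr6a1, which encodes germ cell nuclear factor, had the lowest levels of the tested members, at 0.648 to 1.98 TPM (log2 difference -0.21, or 0.0038 after median centring; adjusted p = 0.618 from limma). Nr4a2, an immediate early receptor gene that did not pass the filter, was 0.556, 0.501, 0.618 and 0.746 TPM in control samples 1 to 4 and 0.475, 0.385, 0.243 and 0.234 TPM in Siglec-XII samples 1 to 4. Every Siglec-XII sample was below every control sample, at levels under 1 TPM. Where no filter was applied, its log2 difference was -0.27 (SE 0.0864, unadjusted p = 0.0153, adjusted p = 0.682 from limma), beside 6.52% of 31352 genes with an unadjusted p of 0.05 or less in either direction. Rora, a retinoid-related orphan receptor gene, was highest in control sample 4 (1.54 TPM) and control sample 1 (0.730 TPM) and at 0.202 to 0.594 TPM in Siglec-XII samples, which overlapped with the other controls.

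The coregulators were lower in Siglec-XII samples 3 and 4 than in the others, with 1 exception. Ncor1, the corepressor that carries histone deacetylase 3 to unliganded receptors, was 34.4, 54.1, 59.8 and 42.7 TPM in control samples 1 to 4 and 56.4, 53.2, 24.5 and 24.7 TPM in Siglec-XII samples 1 to 4. Siglec-XII samples 3 and 4 were the lowest, control sample 1 was the next lowest, and Siglec-XII samples 1 and 2 lay within the range of the other controls. Nrip1, which encodes the corepressor RIP140, was 10.1, 16.9, 20.9 and 15.9 TPM in control samples 1 to 4 and 17.9, 17.8, 8.52 and 6.79 TPM in Siglec-XII samples 1 to 4. The p160 coactivator genes followed the same order of samples: Ncoa1 was 5.28 to 6.31 TPM in Siglec-XII samples 3 and 4, 7.34 TPM in control sample 1 and 11.1 to 14.3 TPM in the other 5. Ncoa2 was 4.80 and 5.17 TPM in Siglec-XII samples 4 and 3, 7.39 TPM in control sample 1 and 10.5 to 12.3 TPM in the other 5, and Ncoa3 was 6.15 and 6.91, 9.33, and 11.2 to 14.5 TPM in the same samples. The median coregulator deviated from its mean by -0.54 and -0.73 log2 units in Siglec-XII samples 3 and 4, by -0.30 in control sample 1 and by 0.18 to 0.42 in the other 5.

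The exception was Ppargc1a (ENSMUSG00000029167, chr5:51454250-51567726), which encodes the coactivator PGC-1α of mitochondrial genes and had the highest log2 difference of the tested members. Ppargc1a was 7.67, 10.2, 15.5 and 11.8 TPM in control samples 1 to 4 and 12.01, 14.5, 12.3 and 12.4 TPM in Siglec-XII samples 1 to 4. Control sample 1 was the lowest and control sample 3 the highest, and the Siglec-XII samples lay between them (log2 difference 0.21, SE 0.190, unadjusted p = 0.307, adjusted p = 0.613 from limma). Its relative Ppargc1b was 4.79, 6.73, 8.001 and 6.57 TPM in control samples 1 to 4 and 7.33, 7.42, 4.55 and 4.63 TPM in Siglec-XII samples 1 to 4, with Siglec-XII samples 3 and 4 and control sample 1 the lowest (adjusted p = 0.779 from limma). The ratio of Ppargc1a to Ppargc1b was 2.71 and 2.68 in Siglec-XII samples 3 and 4 and 1.51 to 1.96 in the other 6. The difference of Ppargc1a was 0.42 after quantile normalization, 0.42 after median centring, 0.25 without Siglec-XII samples 3 and 4, 0.051 without control sample 1 and 0.10 without these 3 samples. Of 6 genes of the PGC-1 program, all passed the filter and 0 had an unadjusted or adjusted p of 0.05 or less by limma. The difference was above 0 in 0 of the 6, beside 21.9% of all genes. The cytochrome c gene Cycs was the most abundant, at 32.2 to 37.2 TPM.

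Of the 7 coregulators, 1 had a log2 difference above 0, beside 21.9% of all genes, and the median of the 7 was -0.34. It became -0.13 after quantile normalization and -0.12 after median centring, with 2 of 7 above 0 in each, beside 53.7% and 61.5% of all genes. The median was 0.17 without Siglec-XII samples 3 and 4 (7 of 7 above 0, beside 50.9% of all genes), 0.0046 without control sample 1 as well (4 of 7, beside 39.1%) and -0.0019 with array weights (3 of 7, beside 33.0%). With all 8 samples and no scaling, no coregulator had an unadjusted or adjusted p of 0.05 or less by limma. Siglec-XII samples 3 and 4 were both below the other 6 samples in 20 of 29 tested members, 6 of 7 coregulators and 14 of 22 receptors, beside 41.6% of all genes tested. Control sample 1 was the lowest control in 23 of 29 members, beside 54.5% of all genes. These counts were chosen after the values were seen. Of 18 partner proteins of the coregulators, such as histone deacetylases and acetyltransferases, all passed the filter and 0 had an adjusted p of 0.05 or less by limma. A difference above 0 was found for 1 (beside 21.9% of all genes), and 1 was lower at an unadjusted p of 0.05 or less (beside 7.67%). The lower gene was Pprc1, which encodes a coactivator related to PGC-1, at 7.35, 8.46, 5.65 and 6.77 TPM in control samples 1 to 4 and 6.08, 5.46, 2.61 and 2.10 TPM in Siglec-XII samples 1 to 4 (log2 difference -0.75, SE 0.279, unadjusted p = 0.0248, adjusted p = 0.515 from limma). Its lowest samples were Siglec-XII samples 3 and 4, and control sample 3 was below Siglec-XII sample 1. The arginine methyltransferase gene Prmt1 was the most abundant partner, at 73.6 to 128 TPM.

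**Figure D4:**
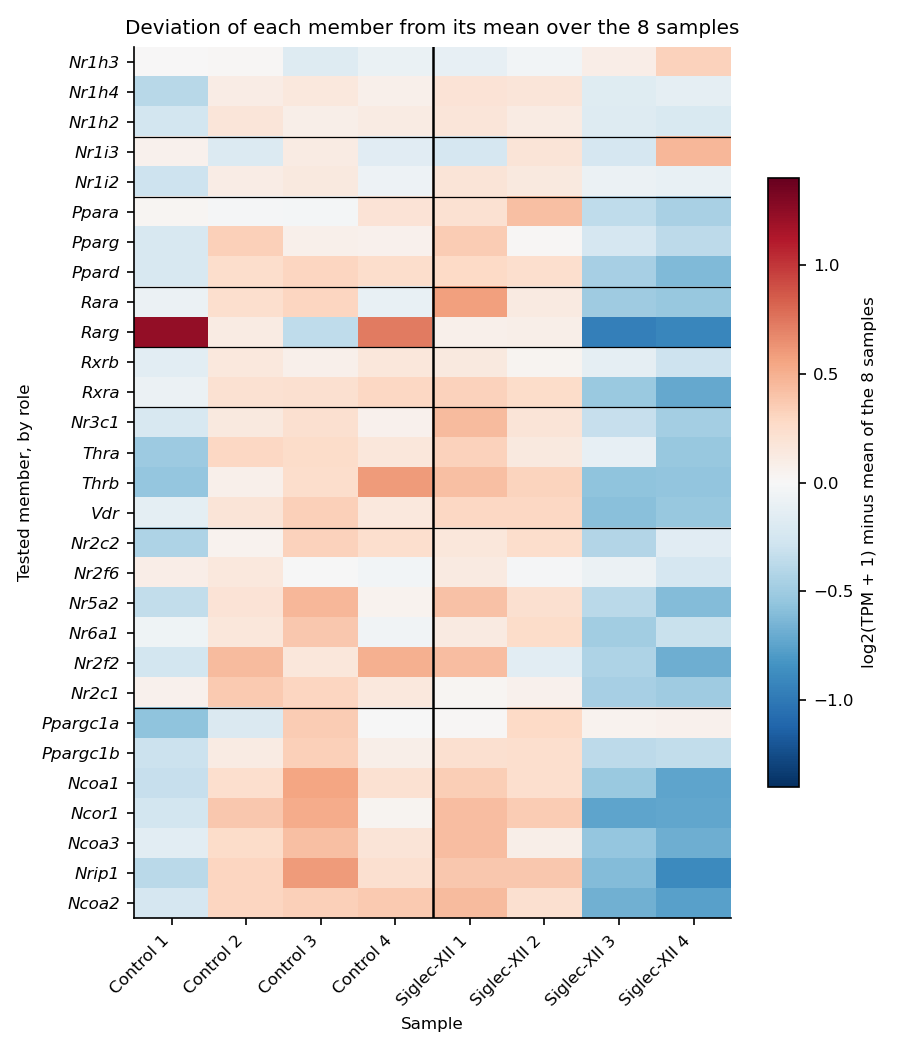
Deviation of each tested member (rows, grouped by role from oxysterol and bile acid sensors at the top to coregulators at the bottom) from its mean over the 8 samples (columns), in log2(TPM + 1), blue for below and red for above. Siglec-XII samples 3 and 4 are below the other 6 in 20 of 29 members, and control sample 1 is the lowest control in 23.

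Transcript length moved with these values. Over all genes tested, the median log2 difference went from -0.043 for 1448 genes whose longest transcript in GENCODE M21 has up to 1000 bases to -0.29 for 972 genes over 7000 bases. In Siglec-XII samples 3 and 4 the median deviation of these genes was 0.025 and -0.0075 for the shortest and -0.40 and -0.57 for the longest, and in control sample 1 it was 0.041 and -0.12. Among the members, Ncor1, Nrip1, Ncoa1, Ncoa2, Ncoa3 and Nr2c2 exceed 7000 bases and had a median difference of -0.34. Nr1h2 and Nr1h3, the shortest tested members, had a median of 0.040, beside -0.078 for the 2310 genes of over 1000 and up to 2000 bases. Ppargc1a at 6464 bases and Nr2c2 at 7647 bases were above the median of genes of their length, and Nr2c1 at 3732, Nr2f2 at 4222 and Rarg at 2953 bases were below it. The length classes were chosen after the values were seen, and the part of RNA quality or of library preparation in these values was not tested.

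**Figure D5:**
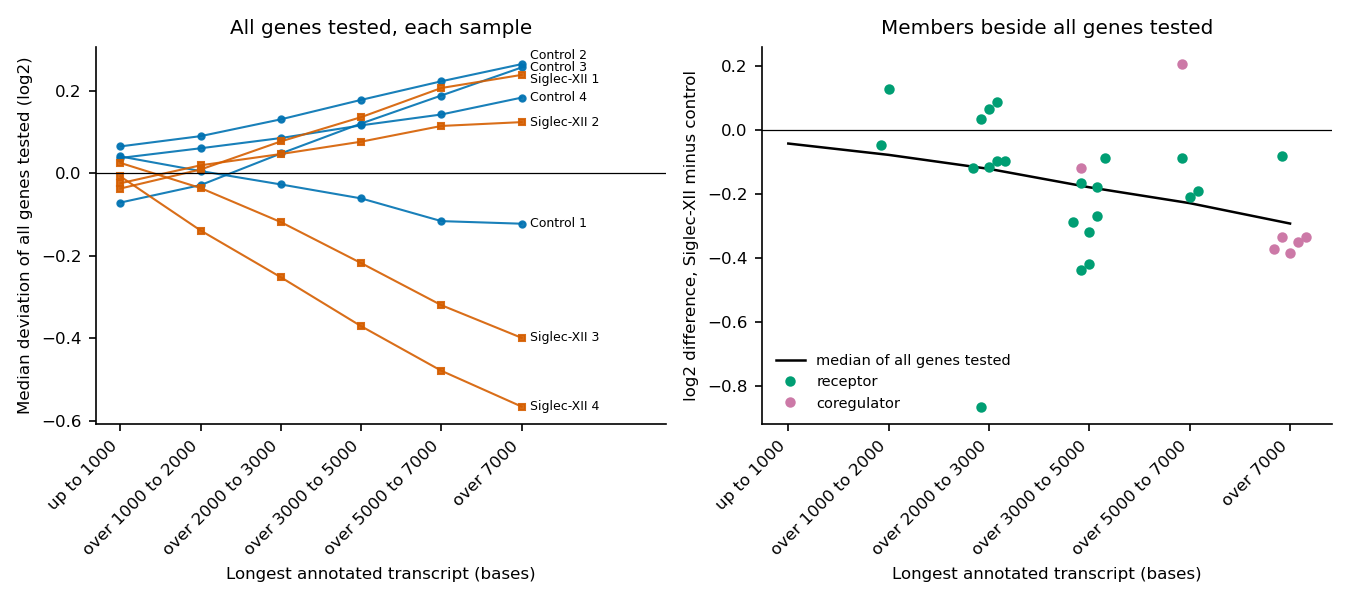
Left, median deviation of all genes tested from their mean over the 8 samples (log2, vertical axis) by length of the longest annotated transcript (bases), 1 line per sample; right, log2 difference of each tested member (points) beside the median of all genes tested (line). The lines of Siglec-XII samples 3 and 4 reach -0.40 and -0.57 for genes over 7000 bases, and the coregulators in that class lie from -0.39 to -0.34.

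Nuclear receptors outside the set were followed as a list of 11 genes, of which 5 passed the filter and 0 had an unadjusted or adjusted p of 0.05 or less by limma. The difference was above 0 in 3 of them, beside 21.9% of all genes. Hnf4a, which encodes a receptor that holds the intestinal epithelial program, was the most abundant, at 244, 353, 352 and 312 TPM in control samples 1 to 4 and 372, 345, 227 and 219 TPM in Siglec-XII samples 1 to 4. It exceeded Vdr in all 8 samples and was lowest in control sample 1 and Siglec-XII samples 3 and 4. The 13 lists of target, supply and partner genes and of other nuclear receptors name 126 genes. Of these, 96 passed the filter and 0 had an adjusted p of 0.05 or less by limma. At an unadjusted p of 0.05 or less, 8 were lower and 0 were higher, beside 7.67% and 1.19% of all genes tested.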

How the data were processed

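RNA of 8 distal colon samples was sequenced, and the authors deposited log2 values, log2(TPM + 1), made with kallisto 0.45.0 on GRCm38 per the submitters' processing notes. The paper's methods name another kallisto version, a human build, an mRNA kit (a stranded total RNA kit in the labels) and counts for DESeq2, which were not used here. The depth per sample is unknown, and 4 samples per group give limited precision. Genes of at least 1 TPM in 4 or more samples (13164) were compared, with a pseudocount of 1, in R 4.3.3 by limma 3.58.1 (linear fit, moderated variance with a trend, 2-sided), with Benjamini-Hochberg adjustment at a threshold of 0.05. The fit was also run on simulated data, and the outcome is not given here. Members and lists were chosen with earlier results of these data known. Full statistics are given for members with an unadjusted p of 0.05 or less or groups that do not overlap, for the 3 highest and 3 lowest differences, and for up to 3 genes with an unadjusted p of 0.05 or less in each list of target, supply and partner genes; 1 of them is not reported here. The gene of each list with the highest control mean is named as its highest or most abundant gene, which need not hold in each sample. Other genes, the squamous list included, were chosen after their values were seen. Alternatives were no filter, a filter at 5 TPM, a pseudocount of 0.1, quantile normalization, median centring, array weights, the sample number as a block, each sample left out, and Siglec-XII samples 3 and 4 left out, without or with control sample 1. Python 3.11.15, pandas 2.3.3, matplotlib 3.10.9, GENCODE M21 and RefSeq promoters were used.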

Additional observations from a re-analysis of the deposited data

Results flagged for a closer look

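A single sample was far removed from its group in 6 of 72 member and group pairs, and chance alone gives about 3.6. On the log2(TPM + 1) scale, the ratio of the gap beside that sample to the full range of its 4 values passed the limit of Dixon's test for Nr1h4 in control sample 1 (0.853; 21.3 TPM, the others 29.6 to 31.4 TPM), Ppard in control sample 1 (0.899; 83.2 TPM, the others 116 to 121 TPM), Rxrg in control sample 3 (0.948; 0.215 TPM, the others 0.0231 to 0.0324 TPM). The same held for Thra in control sample 1 (0.838; 21.9 TPM, the others 35.5 to 38.9 TPM), Ncoa2 in control sample 1 (0.896; 7.39 TPM, the others 11.2 to 11.7 TPM) and Ppargc1a in Siglec-XII sample 2 (0.84; 14.5 TPM, the others 12.01 to 12.4 TPM). Control sample 1 was the low sample in 4 of the 6 cases. Members of 1 sample share their source and are not independent, and the cause was not tested.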

How the results depend on the processing

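The count of members with an adjusted p of 0.05 or less (0 of 29, limma) was 0 in each alternative, and the smallest adjusted p of any member was 0.270 to 0.991 over all settings. At an unadjusted p of 0.05 or less (1 member) it was 2 with median centring, 2 with no filter, 0 with quantile normalization, 0 without Siglec-XII samples 3 and 4, 0 without control sample 1 and Siglec-XII samples 3 and 4, and 0 to 4 with each sample left out in turn. The share of all genes at that threshold was 8.87% with all samples, and 10.8%, 6.52%, 8.45%, 2.75% and 5.19% in these settings, in this order, and 3.67% to 17.97% with each sample left out. With a fold change of at least 2 in addition (0 members) it was 0 in each other setting and 0 to 1 with each sample left out. The share of all genes that passed both limits was 0.919% with all samples and is not given for the other settings, so these counts cannot be set beside it. Members higher in Siglec-XII samples (5) became 15 with array weights, 18 with median centring, 17 with quantile normalization, 25 without Siglec-XII samples 3 and 4, 20 without control sample 1 and Siglec-XII samples 3 and 4, and 3 to 9 with each sample left out. The share of all genes that was higher was 33.0%, 61.5%, 53.7%, 50.9% and 39.1% in these settings, in this order, and 17.7% to 30.6% with each sample left out. The median difference of the members (-0.17) was with a pseudocount of 0.1 -0.18, with array weights 0.012, with median centring 0.046, with no filter -0.12, with quantile normalization 0.032, with the filter at 5 TPM -0.17, with the replicate block -0.17, without Siglec-XII samples 3 and 4 0.14, without control sample 1 and Siglec-XII samples 3 and 4 0.028, and -0.29 to -0.041 with each sample left out. Genes of the pathway lists with an unadjusted p of 0.05 or less (8) numbered 13 with array weights, 3 without Siglec-XII samples 3 and 4, 4 without control sample 1 and Siglec-XII samples 3 and 4, and 0 to 13 with each sample left out, beside 14.1%, 2.75%, 5.19% and 3.67% to 17.97% of all genes. The control 1 alternative was chosen after the values were seen. The log2 difference changed sign with quantile normalization for Nr1h2 (0.059), Nr2c2 (0.16), Nr2f6 (0.0074), Nr3c1 (0.11), Nr5a2 (0.032), Ppara (0.12), Pparg (0.037), Ppargc1b (0.12), Rara (0.044), Rxrb (0.024), Thra (0.044), Thrb (0.036), Cycs (0.13). The log2 difference changed sign with median centring for Nr1h2 (0.16), Nr2c2 (0.13), Nr2f6 (0.12), Nr3c1 (0.12), Nr5a2 (0.034), Nr6a1 (0.0038), Ppara (0.12), Pparg (0.094), Ppargc1b (0.094), Rara (0.046), Rxrb (0.10), Thra (0.12), Thrb (0.020), Cycs (0.21), Hnf4a (0.071), Rbp2 (0.13). The log2 difference changed sign with array weights for Ncor1 (0.041), Nr1h2 (0.012), Nr2c2 (0.042), Nr3c1 (0.077), Nr5a2 (0.026), Nr6a1 (0.065), Ppara (0.28), Ppargc1b (0.063), Rara (0.043), Vdr (0.039), Cycs (0.055), Hnf4a (0.040), Rbp2 (0.20). The log2 difference changed sign without Siglec-XII samples 3 and 4 for Ncoa1 (0.12), Ncoa2 (0.14), Ncoa3 (0.082), Ncor1 (0.23), Nr1h2 (0.12), Nr1h3 (-0.013), Nr2c2 (0.16), Nr2f6 (0.0093), Nr3c1 (0.27), Nr5a2 (0.22), Nr6a1 (0.084), Nrip1 (0.19), Ppara (0.27), Ppard (0.11), Pparg (0.12), Ppargc1b (0.17), Rara (0.27), Rxra (0.13), Rxrb (0.029), Thra (0.18), Thrb (0.27), Vdr (0.15), Cycs (0.012), Hnf4a (0.20). The log2 difference changed sign without control sample 1 and Siglec-XII samples 3 and 4 for Ncor1 (0.082), Nr1h2 (0.028), Nr2c2 (0.0036), Nr2f6 (0.023), Nr3c1 (0.18), Nr5a2 (0.079), Nr6a1 (0.028), Nrip1 (0.0046), Ppara (0.27), Pparg (0.029), Ppargc1b (0.053), Rara (0.21), Rxra (0.052), Thrb (0.058), Vdr (0.065), Cycs (0.043), Hnf4a (0.080), Plin2 (-0.10), Rbp2 (0.071). With each sample left out in turn, signs changed for Nr1h2 (-0.14 to 0.015), Nr1h4 (-0.089 to 0.10), Nr1i2 (-0.020 to 0.12), Nr1i3 (-0.054 to 0.18), Nr2c2 (-0.24 to 0.042), Nr3c1 (-0.25 to 0.055), Ppara (-0.25 to 0.048), Thra (-0.28 to 0.064), Cycs (-0.044 to 0.025), Plin2 (-0.13 to 0.14), Rbp2 (-0.20 to 0.040), S100g (-0.23 to 0.62). The sign held in every setting run for 4 of 29 members. The causes of these changes were not tested. Same-numbered samples of the groups did not deviate together (correlations of -0.165, -0.204, 0.103 and -0.00249 for numbers 1 to 4), so the numbers were not read as pairs; with the replicate block, 0 members had an adjusted p of 0.05 or less by limma, 1 (Rarg) had an unadjusted one (beside 7.18% of all genes), 5 were higher and 4 of all genes had an adjusted p of 0.05 or less. Depth is unknown, and 4 samples per group limit what could be detected.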
